A study of Mus musculus with 2 samples.

Results

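Nonclassical patrolling monocytes were followed in single-cell RNA-Seq of mouse lung. The cells were chosen by their own counts. A cell barcode was taken when it had at least 200 genes, at most 20% mitochondrial UMIs and at least 1000 UMIs in all. UMIs (unique molecular identifiers) are the tags that let each captured RNA molecule be counted once. The cell further needed at least 1 UMI of *Csf1r* and at least 2 UMIs of *Adgre4*, *Pou2f2* and *Treml4* together, and this sum could not be below that of the classical monocyte genes *Ccr2*, *Ly6c2* and *Vcan*. Cells with 3 or more UMIs of the alveolar macrophage genes *Marco*, *Ear1*, *Plet1* and *Atp6v0d2*, or of the neutrophil genes *Retnlg*, *Cxcr2* and *Stfa2l1*, or with any UMI of the B cell genes *Cd79a* and *Ms4a1*, were left out. This gate took 200 of 22315 kept cells, 15 of them from the Cebpa fl/fl library and 185 from the Cebpa ΔSftpc library.

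The Cebpa ΔSftpc mice carry floxed *Cebpa* alleles and a tamoxifen-inducible Cre driven by the *Sftpc* promoter, so that *Cebpa* is lost in alveolar type 2 (AT2) cells and not, by design, in monocytes. The Cebpa fl/fl mice carry the floxed alleles, and no Cre is given for them. Lungs of 3 mice of mixed background per genotype were pooled into 1 library each, 26 weeks after tamoxifen was first given. Tamoxifen was injected on 5 consecutive days at 75 mg/kg, with a second, weekly round where mice were analysed more than 3 months later, and the methods give an age of 3 months at the start for the mice in general. With 1 library per genotype the spread between mice cannot be measured, and genotype, library and handling cannot be told apart. No test between genotypes was made. All intervals are exact 95% intervals that cover counting error only.

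Nonclassical monocytes are the blood monocytes that crawl along the endothelium of small vessels and survey it. They arise from classical Ly6C-high monocytes, a step that depends on the nuclear receptor Nr4a1 and on C/EBPβ, and they live longer than classical cells under signals through Csf1r and the fractalkine receptor Cx3cr1. In the lung they lie mostly inside the capillaries and in contact with endothelial cells.

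The Cebpa fl/fl library held 10582 kept cells with 68139702 UMIs and a median of 5184 UMIs per cell. The Cebpa ΔSftpc library held 11733 kept cells with 63126025 UMIs and a median of 3428. In the nonclassical monocytes the median was 7938 UMIs (4012 to 21588) in the Cebpa fl/fl library and 6352 (1029 to 56969) in the Cebpa ΔSftpc library. Their summed counts came to 125071 and 1570138 UMIs, so that a gene at the same level rests on fewer UMIs in the Cebpa fl/fl cells. The libraries shared 45 barcodes, and 0 of them were nonclassical monocytes in either library.

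Several cells stood apart from the others of the gate. Of the 15 Cebpa fl/fl cells, 3 had 3 or more UMIs of the complement genes *C1qa*, *C1qb* and *C1qc*, which mark macrophages, and 1 of these also had 96 UMIs of the endothelial genes *Cdh5*, *Cldn5* and *Egfl7*. Another single cell held 99.9% of the hemoglobin UMIs of the group. Of the 185 Cebpa ΔSftpc cells, 20 had 3 or more C1q UMIs and 88 had 3 or more endothelial UMIs. The source of these UMIs was not tested, and values without such cells are given below where the direction differs.

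Nonclassical monocytes were a larger share of the Cebpa ΔSftpc library. They made up 0.142% of the kept Cebpa fl/fl cells (0.0794 to 0.234) and 1.58% of the kept Cebpa ΔSftpc cells (1.36 to 1.82), an 11.1-fold difference (6.57 to 20.3) or 3.48 on the log2 scale (2.72 to 4.34). The size depended on the gate: with a gate sum of at least 10 there were 11 and 84 cells, and the difference was 2.78 on the log2 scale (1.87 to 3.84). Classical monocytes, taken with the mirrored gate (at least 2 UMIs of *Ccr2*, *Ly6c2* and *Vcan*, and more of these than of the nonclassical genes), numbered 17 and 209 cells, and their share differed by 3.47 on the log2 scale (2.76 to 4.28). Nonclassical cells were thus 46.9% of the monocytes of both gates in the Cebpa fl/fl library (29.1 to 65.3) and 47.0% in the Cebpa ΔSftpc library (41.9 to 52.0). The first of these intervals is wide, and after thinning every cell to 1000 UMIs, which left 8 and 81 nonclassical cells, the values were 80% and 61.83%. With no *Csf1r* UMI required, the 25 nonclassical cells of the Cebpa fl/fl library were 5.59% of the cells in both gates, which were then more than the 192 cells of that library with a UMI of the leukocyte gene *Ptprc* (CD45). Most of them thus had no *Ptprc* UMI, and no balance of monocytes was read from that gate.

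A higher share was not found among cells with a *Ptprc* UMI, of which there were 192 in the Cebpa fl/fl and 3888 in the Cebpa ΔSftpc library. Among *Ptprc*-positive cells the nonclassical share was 7.81% in the Cebpa fl/fl library (15 cells, 4.44 to 12.6) and 4.37% in the Cebpa ΔSftpc library (170 cells, 3.75 to 5.06), which is -0.84 on the log2 scale (-1.60 to 0.03) and within counting error of equality. A *Ptprc* UMI did not set leukocytes apart, however. Of the cells with 3 or more UMIs of *Cdh5*, *Cldn5* and *Egfl7* and no *Csf1r* UMI, 74 of 8224 in the Cebpa fl/fl library (0.8998%, 0.707 to 1.13) and 1849 of 8150 in the Cebpa ΔSftpc library (22.7%, 21.8 to 23.6) had a *Ptprc* UMI, so both denominators held many cells with endothelial RNA, and no share among leukocytes can be given. Below, endothelial cells are those of these cells that had no *Ptprc* UMI, 8150 and 6301 in number. How many leukocytes, or monocytes, a whole lung held cannot be told from a share of 1 library, and whether cells were sorted before loading is not settled between the sources. The bar plot of shares sets both denominators side by side.

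**Figure D1:**
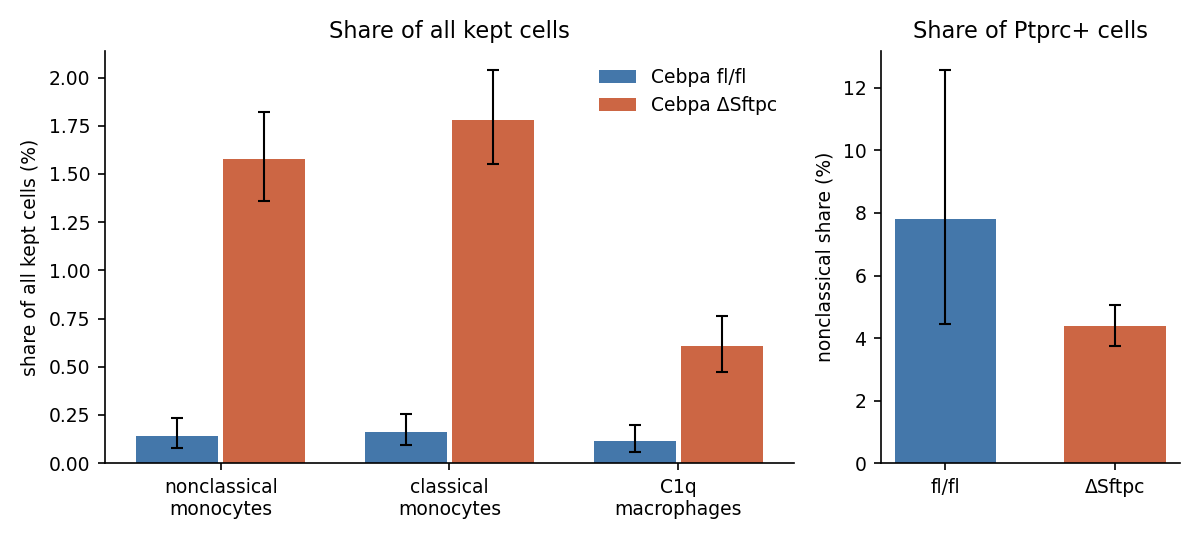
Share of nonclassical monocytes, classical monocytes and C1q macrophages among all kept cells (left, %) and of nonclassical monocytes among cells with a Ptprc UMI (right, %), in 1 library of Cebpa fl/fl (blue) and 1 of Cebpa ΔSftpc (orange) lung. Bars are shares, error bars exact 95% binomial intervals; the nonclassical share was 0.142% against 1.58% of all cells, and 7.81% against 4.37% of Ptprc-positive cells.

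The gate genes themselves, whose levels follow from the choice of the cells, describe how firmly each cell was placed. *Adgre4* (chr17:55749984-55853662, plus strand, coordinates of GRCm38) encodes an adhesion G protein-coupled receptor of the EMR family. *Treml4* (chr17:48264295-48275360, plus strand) encodes a receptor of the TREM family, and *Pou2f2* (chr7:25087344-25179726, minus strand) the transcription factor OCT2. Their summed UMIs per cell ran from 4 through a median of 16 to 33 in the Cebpa fl/fl cells and from 2 through a median of 8 to 72 in the Cebpa ΔSftpc cells. All 3 genes were found in 9 of 15 and in 96 of 185 cells, while *Pou2f2*, which B cells also use, was the only one found in 4 and in 42 cells. No UMI of the classical genes was present in 9 and 126 cells. Just inside the threshold, with a sum of 2, were 34 Cebpa ΔSftpc cells and 0 from the other library, and just outside it, with a sum of 1 and all other conditions met, were 52 and 3. A further 113 and 10 cells missed the gate only for lack of a *Csf1r* UMI.

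Cells with few and with many gate UMIs differed in genes that the gate did not use. In the Cebpa ΔSftpc library, 65 cells had a gate sum of 2 to 4, 36 had 5 to 9 and 84 had 10 or more. *Cx3cr1* was at 397.3, 657.2 and 858.9 CPM (the UMIs of a gene scaled to a common total over the summed cells) from the lowest to the highest of these bands. *Spn*, which encodes CD43, was at 162.1, 219.1 and 650.0 CPM, and *Cd300e*, an activating receptor of myeloid cells, at 50.8, 74.3 and 355.9 CPM. *Itgal*, the α chain of the integrin LFA-1, was at 321.0, 527.2 and 1454 CPM. All 4 genes were therefore highest in the cells with the most gate UMIs. *C1qa* went the other way, with 1411, 1727 and 4.06 CPM, and 13, 6 and 1 of the cells of each band had 3 or more C1q UMIs. The endothelial genes *Cdh5* (410.0, 271.0 and 64.9 CPM) and *Cldn5* (645.1, 397.3 and 106.5 CPM) also fell. Of the cells in these bands, 53.85%, 58.33% and 38.1% had 3 or more endothelial UMIs. The median depth also differed between the bands, with 1875, 4495 and 9351 UMIs per cell, so that the low sums hold both shallow cells and deeper cells with C1q, as the scatter of gate sum against depth shows.

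**Figure D2:**
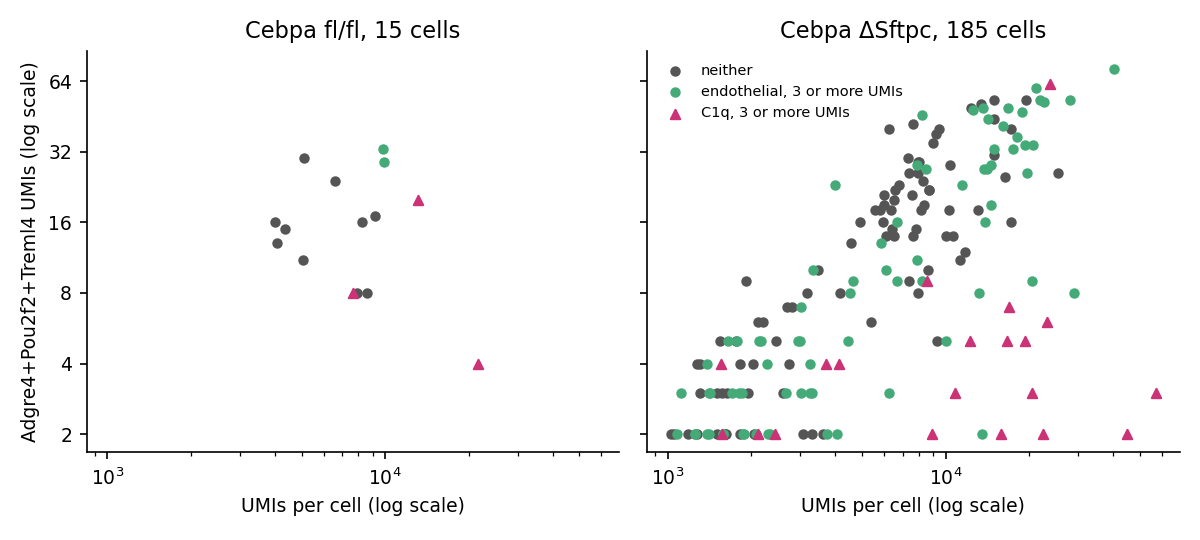
Each point is 1 nonclassical monocyte of the Cebpa fl/fl (left, 15 cells) or Cebpa ΔSftpc library (right, 185 cells), with its total UMIs (x axis, log scale) against its UMIs of Adgre4, Pou2f2 and Treml4 (y axis, log scale). Triangles are the 3 and 20 cells with 3 or more C1q UMIs, green points those of the others with 3 or more UMIs of Cdh5, Cldn5 and Egfl7; gate sums rise with depth, and cells with C1q lie mostly below the other cells of their depth.

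Markers that the gate did not use were read to check the label. *Cx3cr1* (chr9:119901616-120069879, minus strand) was at 775.6 CPM in the Cebpa fl/fl cells (628.9 to 946.1) and 731.8 CPM in the Cebpa ΔSftpc cells (690.1 to 775.4), and 100% and 76.8% of the cells had a UMI of it. When every cell was thinned to 1000 UMIs, the shares were 60.0% (32.3 to 83.7) and 41.6% (34.4 to 49.1). In endothelial cells, which should lack the gene, the thinned shares were 0.037% and 0.857%, from median depths of 5114 and 3673 UMIs. These reference cells were chosen to have no *Ptprc* or *Csf1r* UMI, which leaves out droplets with leukocyte RNA and so lowers their share of a leukocyte gene. Classical monocytes had thinned shares of 23.5% (6.81 to 49.9) and 23.9% (18.3 to 30.3), and the first of these intervals overlaps that of the Cebpa fl/fl nonclassical cells. Only 31 of the 65 Cebpa ΔSftpc cells with a gate sum of 2 to 4 had a *Cx3cr1* UMI, and several cells rich in C1q UMIs had 10 or more, so that *Cx3cr1* does not separate nonclassical monocytes from the classes most like them. *Itgal* was found in 60.0% (32.3 to 83.7) and 57.8% (50.4 to 65.05) of the nonclassical and in 5.88% (0.149 to 28.7) and 16.7% (11.95 to 22.5) of the classical cells after thinning, with intervals that do not overlap in either library. Endothelial cells had it in 0.147% and 2.98%. *Itgal* was chosen here after its values were seen. In the Cebpa fl/fl library the thinned intervals of *Spn* overlapped, at 46.67% (21.27 to 73.41) of nonclassical and 11.76% (1.458 to 36.44) of classical cells. Those of *Ace*, *Cd300e* and *Ceacam1* overlapped too, and *Nr4a1* was in 33.33% and 35.29%. *Fcgr4* did not overlap there (21.27 to 73.41 and 0 to 19.51). In the Cebpa ΔSftpc library *Ceacam1* overlapped, and *Spn*, *Ace*, *Cd300e*, *Nr4a1* and *Fcgr4* did not. The label is least sure for cells with low gate sums and for those with C1q UMIs.

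Within each library, nonclassical monocytes were then set against classical monocytes, over genes with a mean of at least 100 CPM. In the Cebpa ΔSftpc library 6.13% of 1582 genes were at least 2-fold higher and 2.84% at least 2-fold lower in the nonclassical cells. In the Cebpa fl/fl library, with 15 and 17 cells, the shares of 1609 genes were 19.3% and 7.83%. With free RNA subtracted, the 311 higher and 126 lower genes of that library became 135 and 1706, and 90% of the UMIs of its classical cells were taken away. Of the 18 genes listed for nonclassical identity outside the gate, 15 were measured at that level in the Cebpa ΔSftpc library and 13 of them were at least 2-fold higher, with a median log2 ratio of 2.27 against 0.09 over all genes. In the Cebpa fl/fl library 13 of 16 were, with a median of 3.43 against 0.22. None of the list was 2-fold lower in either. Genes such as *Cd300e* and *Eno3* passed the limit only through the nonclassical cells, where they are high, so these counts describe the genes that passed and are no support for the label. With no limit the medians were 2.39 and 3.43, and with free RNA subtracted 2.89 and 0.83. In the Cebpa ΔSftpc library that subtraction took 38.32% of the UMIs of the classical and 6.865% of those of the nonclassical cells. *Klf2* and *Cebpb* were the 2 listed genes below 2-fold in the Cebpa ΔSftpc library, at 1.33-fold and 1.37-fold.

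The genes highest over classical monocytes in the Cebpa ΔSftpc library were led by *Cd300e*. Ranked in the Cebpa ΔSftpc library by the bound of the interval nearest 0, the first 12 were *Cd300e*, *Eno3*, *Pglyrp1*, *Dusp16*, *Pf4*, *Cd300ld*, *Spn*, *Slc12a2*, *Pilra*, *Itgal*, *Cyfip2* and *Ear2*. All 12 were also higher in the Cebpa fl/fl library, in 11 of them beyond counting error. Of all 1609 genes measured there, 418 were higher beyond counting error. The 12 were picked by their ratio, and the 1609 were not. Some of the 12, such as *Cd300e* and *Eno3*, also passed the limit on mean CPM only through the nonclassical cells, where they are high. The 2 counts are therefore not like for like, and the shared direction of the 12 is no support for the label. *Cd300e* had 387 UMIs in the Cebpa ΔSftpc nonclassical cells, or 246.5 CPM, and 3.74 CPM in the classical cells, a 65.9-fold difference (log2 6.04, 5.05 to 7.27). In the Cebpa fl/fl library it had 41 UMIs in the nonclassical and 0 in the classical cells. With a floor of 3 counts over the group this gave 22.3-fold (log2 4.48, 2.83 to 6.82). *Eno3*, which encodes the β subunit of the glycolytic enzyme enolase, was at 293.0 against 10.3 CPM in the Cebpa ΔSftpc library and at 351.8 CPM against 0 UMIs in the Cebpa fl/fl library. Both genes had few or no UMIs in classical monocytes of either library.

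*Spn* was at 575.7 CPM in the nonclassical and 53.8 in the classical cells of the Cebpa fl/fl library (10.7-fold), and at 478.3 and 58.4 CPM in those of the Cebpa ΔSftpc library (8.19-fold). *Itgal* was 11.01-fold and 5.75-fold higher, at 1023 and 1068 CPM in the nonclassical cells. *Cd300ld* and *Pilra*, receptors of the CD300 and paired immunoglobulin-like families, were 9.29-fold and 6.80-fold higher in the Cebpa ΔSftpc library. *Ear2*, an eosinophil-associated ribonuclease, was at 409.5 against 69.6 CPM there, and had 29 against 0 UMIs in the Cebpa fl/fl library. *Pglyrp1*, a peptidoglycan recognition protein, was at 375.8 against 30.8 CPM. The levels in nonclassical cells of the other library were 399.8 CPM for *Cd300ld*, 263.9 for *Pilra* and 455.7 for *Pglyrp1*.

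*Pf4*, a platelet chemokine, was the exception among the 12. It had 437 UMIs in 32 of the 185 Cebpa ΔSftpc cells and 8 UMIs in 3 of the 15 Cebpa fl/fl cells, where its ratio to classical cells lay within counting error (log2 1.71, -0.19 to 3.89). The 5 platelet markers *Pf4*, *Ppbp*, *Gp9*, *Itga2b* and *Gp1bb* summed to 344.6 CPM in the Cebpa ΔSftpc nonclassical cells, all 5 with a UMI, and to 36.0 CPM in the classical cells. In the Cebpa fl/fl nonclassical cells *Pf4* was the only one of them with a UMI, at 63.96 CPM. The part of platelet RNA in the *Pf4* level was not tested.

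**Figure D3:**
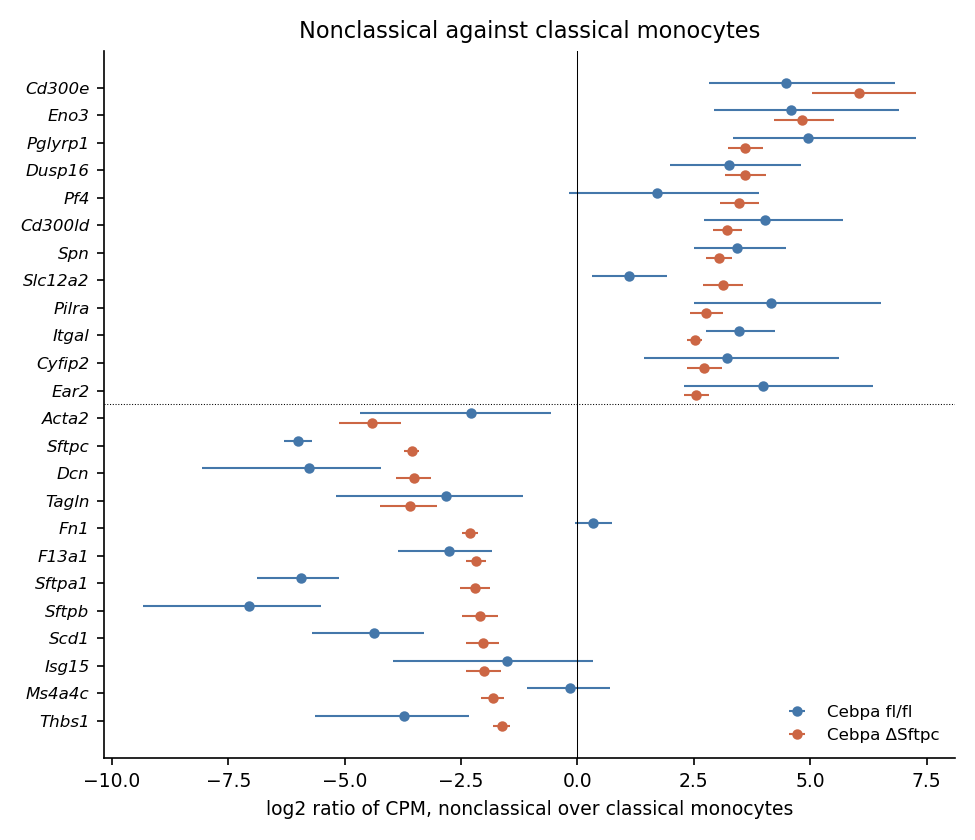
log2 ratio of CPM in nonclassical over classical monocytes within the Cebpa fl/fl library (blue) and the Cebpa ΔSftpc library (orange), for the 12 genes highest (top) and the 12 lowest in the Cebpa ΔSftpc library. Points are ratios with exact 95% intervals; all 12 top genes lie above 0 in both libraries, and Fn1 lies at 0.34 in Cebpa fl/fl against -2.31 in Cebpa ΔSftpc.

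The windows around the start sites of 4 genes are shown because each holds the same short motif, for which they were picked after a search of the 12 genes above and of the identity list with the gate genes. They run from 250 bases before to 50 bases after the RefSeq start site (GRCm38.p6, on the gene's own strand), and capitals mark GAGGAAGT or its reverse complement ACTTCCTC, a core sequence bound by PU.1, the factor encoded by *Spi1*.
Adgre4 (chr17:55749734-55750033, plus strand): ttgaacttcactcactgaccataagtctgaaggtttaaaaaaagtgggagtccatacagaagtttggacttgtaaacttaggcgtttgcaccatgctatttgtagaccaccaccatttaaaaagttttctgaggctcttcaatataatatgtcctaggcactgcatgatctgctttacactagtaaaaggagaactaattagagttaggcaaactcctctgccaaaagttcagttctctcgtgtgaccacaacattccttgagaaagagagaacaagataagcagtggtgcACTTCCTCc
Cd300ld (chr11:114989837-114990136, minus strand): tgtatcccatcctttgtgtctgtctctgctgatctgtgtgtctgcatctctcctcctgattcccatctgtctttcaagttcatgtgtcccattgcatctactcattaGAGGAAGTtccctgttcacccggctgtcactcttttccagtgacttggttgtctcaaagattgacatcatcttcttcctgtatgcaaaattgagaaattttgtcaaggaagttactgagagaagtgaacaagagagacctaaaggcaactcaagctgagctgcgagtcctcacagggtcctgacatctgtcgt
Fcgr4 (chr1:171018676-171018975, plus strand): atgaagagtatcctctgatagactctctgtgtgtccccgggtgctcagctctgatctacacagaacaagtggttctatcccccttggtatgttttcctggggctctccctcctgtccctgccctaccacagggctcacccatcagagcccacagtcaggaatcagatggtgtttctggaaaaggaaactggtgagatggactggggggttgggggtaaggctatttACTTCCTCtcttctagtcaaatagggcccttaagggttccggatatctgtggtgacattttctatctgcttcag
Pf4 (chr5:90772185-90772484, plus strand): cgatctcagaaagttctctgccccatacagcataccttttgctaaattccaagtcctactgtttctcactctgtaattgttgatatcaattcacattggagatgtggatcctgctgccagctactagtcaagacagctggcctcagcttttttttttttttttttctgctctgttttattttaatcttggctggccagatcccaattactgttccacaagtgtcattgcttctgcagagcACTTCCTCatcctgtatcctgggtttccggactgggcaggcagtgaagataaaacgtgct
Among the 12 genes above, 10 had a window and 2 of these held the motif, in *Cd300ld* and *Pf4*. Among the 21 genes of the identity list with the gate genes, 17 had 18 windows and 2 held it, against 3.20% of all 32851 windows. The Nr4a1 half-site AAAGGTCA was in 0 of the 10 and 0 of the 18 windows and in 1.51% of all, and the octamer ATGCAAAT, bound by OCT factors, in 0, 0 and 1.74%. The box CCACACCC, bound by factors of the KLF family, was in 1 window of each set, that of *Pglyrp1*, and in 3.56% of all. Both strands were searched, and a match says only that these letters occur in the window.

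The adhesion list holds molecules by which a patrolling monocyte keeps to the vessel wall. Of 14 genes, 11 were measured in each library, and 5 were at least 2-fold higher in the Cebpa ΔSftpc library (median log2 ratio 0.96), where 6.13% of all genes were and the median of all genes was 0.09. In Cebpa fl/fl lung 9 were (2.18), against 19.3% of all genes and a median of 0.22. Genes such as *Spn*, at 58.4 and 53.8 CPM in classical cells, passed the limit only through the nonclassical cells, where they are high. These counts therefore describe the genes that passed and are no support for the label. *Cx3cr1*, *Itgal*, *Spn* and *Ceacam1* are also on the identity list. The 9 include *Icam2* (log2 3.14) and *Pecam1* (2.90), which were at 0.42 and 0.86 in the Cebpa ΔSftpc library. *Cx3cr1* was 2.26-fold and 4.95-fold higher. *S1pr5*, a sphingosine-1-phosphate receptor used for egress from bone marrow, was at 80.9 against 6.07 CPM in the Cebpa ΔSftpc library, with 12 against 1 UMIs in the Cebpa fl/fl library. *Ace*, the angiotensin-converting enzyme, was 4.81-fold and 15.5-fold higher than in classical cells, but endothelial cells had it at 1206 and 1020 CPM in the Cebpa ΔSftpc and Cebpa fl/fl libraries, above the 649.6 and 607.7 CPM of the nonclassical monocytes. The summed endothelial markers stood at 1323 CPM in the Cebpa ΔSftpc nonclassical cells against 967.5 in the classical cells, and at 2511 against 371.9 CPM in the Cebpa fl/fl library, where *Ramp2*, at 687.6 CPM, was the most abundant. In that library 1 nonclassical cell held 88.4% of the *Ramp2* UMIs, and the cell with 96 endothelial UMIs, which had a gate sum of 4, held 82.8% of those of *Cdh5*, *Cldn5* and *Egfl7*. Per cell the median of these 3 genes was 152 CPM in the Cebpa fl/fl and 355 CPM in the Cebpa ΔSftpc nonclassical cells, the opposite order to the sums. The part of endothelial RNA in the ratios of *Ace*, *Icam2* and *Pecam1* was not tested. *Cx3cr1*, *Spn* and *Cd300e* were at or below 4.41 CPM in endothelial cells of both libraries.

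Among receptors for growth factors and signals of survival, *Csf1r*, which the gate used, was at 903.5 CPM in the Cebpa fl/fl and 813.3 CPM in the Cebpa ΔSftpc nonclassical cells. *Bcl2*, which guards against apoptosis, was 4.23-fold higher than in classical cells of the Cebpa ΔSftpc library, at 118.5 against 28.0 CPM, and 12 against 3 UMIs in the Cebpa fl/fl library gave 6.54-fold (log2 2.71, 0.82 to 5.17). *Mcl1* was 0.860-fold and 0.839-fold. Of the ligands, *Cx3cl1* (fractalkine) was at 63.96 CPM in Cebpa fl/fl endothelial cells, against 55.97 CPM in those of the other library, and *Csf1* at 70.2 and 60.6 CPM. *Il34*, the other ligand of Csf1r, was at 2.54 and 1.65 CPM there. The fractalkine and *Csf1* levels in endothelium were thus close to each other between libraries.

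Of the transcription factors of the lineage, *Nr4a1* was at 607.7 CPM (478.8 to 760.6) in the Cebpa fl/fl and 1015 CPM (966.0 to 1066) in the Cebpa ΔSftpc nonclassical cells, which is 2.03-fold over classical cells in the latter and 1.46-fold in the former. *Nr4a1* is also an immediate-early gene, and the list of such genes had a median log2 ratio of 0.35 between genotypes; the part of cell handling was not tested. *Cebpb* was the most alike between genotypes of the factors named here, at 1887 and 1882 CPM. *Spi1* was at 663.6 and 592.9 CPM and *Klf2* at 695.6 and 731.8 CPM, but *Klf2* was at 1570 and 1535 CPM in endothelium. *Cebpa* itself had 13 UMIs in the Cebpa fl/fl cells, or 103.9 CPM (55.3 to 177.7), and 112 UMIs in the Cebpa ΔSftpc cells, or 71.3 CPM (58.7 to 85.8). Its ratio between genotypes, -0.54 on the log2 scale (-1.38 to 0.41), included equality. The 3′ counts of *Cebpa* were not used as a check of the deletion, because the Cre is not directed to monocytes by design.

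**Figure D4:**
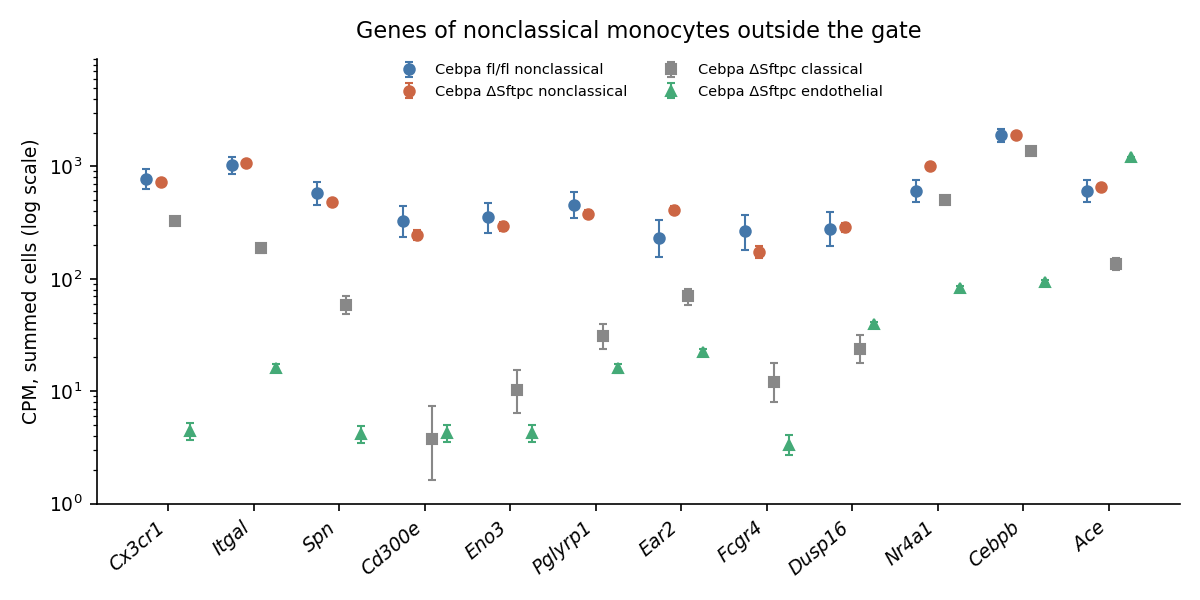
Level (CPM of the summed cells, log scale) of 12 genes in Cebpa fl/fl nonclassical monocytes (blue), Cebpa ΔSftpc nonclassical monocytes (orange), Cebpa ΔSftpc classical monocytes (grey squares) and Cebpa ΔSftpc endothelial cells (green triangles). Error bars are exact 95% Poisson intervals; Nr4a1, at 607.7 against 1015 CPM, and Ear2, at 231.9 against 409.5, separate the nonclassical groups most, and Ace has an endothelial level of 1206 CPM.

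The 12 genes lowest against classical monocytes in the Cebpa ΔSftpc library included *F13a1*, *Ms4a4c*, *Isg15*, *Thbs1* and *Fn1*. *F13a1*, which encodes coagulation factor XIII A, was at 140.8 against 634.9 CPM in the Cebpa ΔSftpc library and 80.0 against 543.1 CPM in the Cebpa fl/fl library. *Ms4a4c* was at 110.8 against 391.9 CPM and the interferon-induced *Isg15* at 46.5 against 187.8 CPM in the Cebpa ΔSftpc library, and both lay within counting error of equality in the Cebpa fl/fl library. *Thbs1*, thrombospondin 1, was at 202.5 against 626.0 and 31.98 against 425.7 CPM. *Fn1*, fibronectin, was at 222.3 against 1101 CPM in the Cebpa ΔSftpc library and at 767.6 against 606.7 CPM in the Cebpa fl/fl library, where 1 nonclassical cell held 71.9% of its UMIs. Of the 12 lowest genes, 11 had the same direction in the Cebpa fl/fl library, 9 of them beyond counting error. Of all 1609 genes measured there, 233 were lower beyond counting error. The 12 were picked by their ratio, and the 1609 were not. Some of the 12, such as *Isg15*, also passed the limit on mean CPM only through the classical cells, where they are high. The shared direction of the 12 is therefore no support for the label. The others of the 12 were *Sftpc*, *Sftpa1*, *Sftpb* and *Scd1*, which AT2 cells express, the fibroblast gene *Dcn*, and *Acta2* and *Tagln*, genes of smooth muscle and other contractile cells. The 6 AT2 markers summed to 58938 CPM in the Cebpa fl/fl and 3422 CPM in the Cebpa ΔSftpc classical gate, and to 991.4 and 407.0 CPM in the nonclassical gate, with *Sftpc* the most abundant. The classical gate therefore held epithelial RNA. Without cells that had at least 1% of their UMIs from surfactant and fibroblast genes, 12 and 196 classical cells remained, and *Sftpc* (0.76), *Sftpb* (0.75), *Sftpa1* (1.17), *Tagln* (1.39) and *Scd1* (0.58) turned to a higher log2 ratio in the Cebpa ΔSftpc nonclassical cells. All of these but *Scd1* were among the genes by which cells were left out, so their turn follows in part from the filter itself. With the same cells left out *F13a1* was at -2.27 and the median of the identity list was 2.23 there and 2.73 in the Cebpa fl/fl library.

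Between genotypes, few genes of the nonclassical monocytes were 2-fold or more apart. Over 1729 genes with a mean of at least 100 CPM, 1.79% were at least 2-fold higher and 3.18% at least 2-fold lower in the Cebpa ΔSftpc cells. The interval lay above 0 in 113 and below 0 in 178 of them. Of the nonclassical identity genes, 17 of 18 were measured and 0 were 2-fold apart in either direction, with a median log2 ratio of -0.08 against -0.05 over all genes. With shares this low over all genes, 0 of 17 does not set the identity genes apart from the rest. The ratios of the identity genes ran from *Fcgr4*, an activating Fc receptor, at -0.62 (-1.14 to -0.05), to *Ear2* at 0.82 (0.28 to 1.41) and *Nr4a1* at 0.74 (0.41 to 1.09). *Itgal* (0.06) and *Cx3cr1* (-0.08) were among the closest to 0. The median of the list lay between -0.21 and 0.04 over the alternatives tried.

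The genes highest in the Cebpa ΔSftpc cells included chemokines, a matrix protein and a nuclear RNA, and for several of them 3 or fewer Cebpa fl/fl cells had a UMI. *Neat1*, a long noncoding RNA of nuclear paraspeckles, was at 231.9 CPM in the Cebpa fl/fl and 637.5 CPM in the Cebpa ΔSftpc cells, or 2.75-fold (1.90 to 4.13), with a UMI in 11 of 15 and 159 of 185 cells. Its log2 ratio was 1.38 to 1.68 under the alternatives run. *Ifi27l2a*, an interferon-induced gene, was at 367.8 and 775.1 CPM (2.11-fold, 1.57 to 2.89), in 12 and 120 cells. *Thbs1* was 6.33-fold higher (2.45 to 23.4), from 4 UMIs in 2 cells and 318 UMIs in 51 cells. *Cxcl2*, a neutrophil-attracting chemokine, had 8 UMIs in 3 Cebpa fl/fl cells and 421 UMIs in 58 Cebpa ΔSftpc cells (4.19-fold, 2.11 to 9.77), but only 0.83 on the log2 scale in cells with a gate sum of 10 or more. Its level in endothelial cells was 0.236 and 19.6 CPM. *Ccl5* had 2 and 589 UMIs, and 1 cell held 55.5% of the latter.

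*Hmgb2*, *Lgals1*, *Inmt*, *Pf4* and the ribosomal *Rps18* completed the 10 genes highest by the bound of their interval among genes at or above the level of the whole library. Below that level, *AY036118* (log2 3.68, 2.90 to 4.59) had a higher bound than any of these 10. Others below it, such as *Col3a1* (3.003), *Gm42418* (1.49), *Mgp* (1.97) and *Ptms* (1.27), had bounds as high as some of the 10. *Hmgb2* and *Lgals1* were at 1.03 and 1.25 on the log2 scale, and at 0.33 and 0.42 without cells that carried markers of other types. *Inmt* is a fibroblast gene, and 39.7% of its 343 UMIs came from 1 cell. Its log2 ratio was 2.45, and turned to -1.90 in cells with a gate sum of 10 or more. *Rps18* was 1.62-fold higher (1.35 to 1.97) in nonclassical monocytes and stood at 898.6 and 1485 CPM over all cells of the 2 libraries, so the libraries as a whole also differed in it. The same held for *Ifi27l2a*, at 96.2 and 271.3 CPM over all cells, *Cxcl2*, at 2.47 and 205.6 CPM, and *Ccl5*, at 36.1 and 332.8 CPM. It also held for *Hmgb2* (159.6 and 255.6 CPM), *Thbs1* (95.7 and 152.2), *Neat1* (322.1 and 439.9), *Lgals1* (175.6 and 215.4) and *Pf4* (143.0 and 163.4). *Inmt* went the other way over all cells, at 506.2 and 214.0 CPM. Whether these differences belong to the monocytes or to RNA from the rest of the library was not tested.

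The genes lowest in the Cebpa ΔSftpc cells rested on the few Cebpa fl/fl cells that stood apart. *Hbb-bs*, *Hba-a1*, *Hba-a2* and *Hbb-bt* came from the 1 hemoglobin-rich cell, which held 99.8% of the 1956 *Hbb-bs* UMIs. Without hemoglobin-rich cells *Hbb-bs* turned to 1.25 on the log2 scale (-0.14 to 3.15). *C1qa* and *C1qc* had UMIs in 3 Cebpa fl/fl cells, *Cxcl13* in 1, and *Cd72* and *Slamf9* in 2. *Fn1* was at -1.79, and at 2.13 (0.75 to 4.01) in cells with a gate sum of 10 or more. None of these lower levels is therefore a property of most of the 15 cells.

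**Figure D5:**
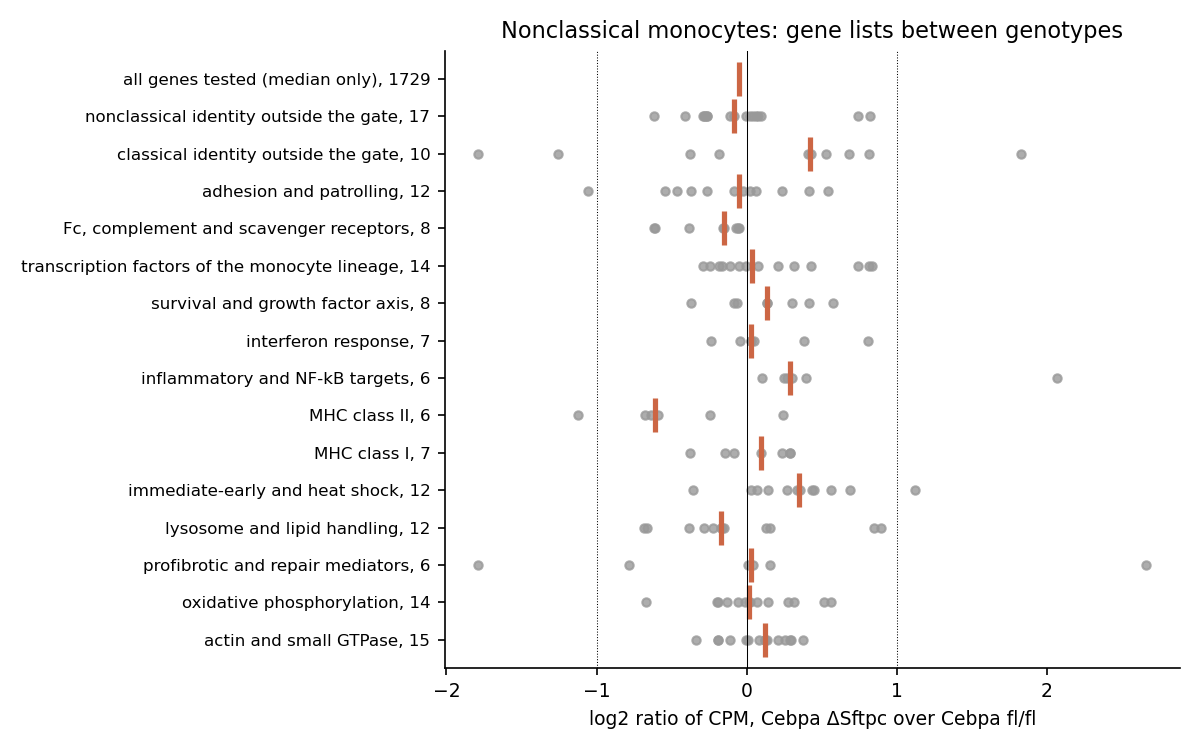
log2 ratio of CPM in nonclassical monocytes, Cebpa ΔSftpc over Cebpa fl/fl, for the genes of 15 lists (grey points) with the median of each list and of all genes tested (orange bars), and dotted lines at 2-fold. The number after each name is the count of genes measured; the identity list lies within the dotted lines with a median of -0.08, and MHC class II has the lowest median at -0.61.

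The other lists, which were chosen with results of these data known, mostly stayed near the median of all genes, of which 1.79% were 2-fold higher and 3.18% lower. Of 14 measured genes for oxidative phosphorylation, 0 were 2-fold apart and the median log2 ratio was 0.02. The interferon list (7 measured, 0 apart, 0.03), MHC class I (7, 0, 0.09), the transcription factors (14, 0, 0.03), the actin list (15, 0, 0.12), the survival list (8, 0, 0.13), the lysosome list (12, 0, -0.17) and the Fc and scavenger receptors (8, 0, -0.15) had no gene beyond 2-fold. Among adhesion genes 1 of 12, *Icam2*, was 2-fold lower (-1.06), and it was at 1004 and 956.3 CPM in endothelial cells of the libraries against 215.9 and 103.8 CPM in the nonclassical monocytes. The immediate-early and heat shock list had a median of 0.35, with *Fosb* (1.12) the 1 gene of 12 at least 2-fold higher. The interval lay above 0 in 6 of these 12 genes and in 113 of all 1729. The inflammatory list had *Cxcl2* as 1 of 6, and a median of 0.29. *Il1b*, interleukin 1β, was at 471.7 CPM in the Cebpa fl/fl and 620.3 CPM in the Cebpa ΔSftpc cells (0.40, 0.02 to 0.80). It was at 0.236 and 42.5 CPM in endothelial cells, of which 0.147% and 14.0% had a UMI of it before thinning. After thinning 0.025% and 6.27% of the endothelial cells had one. For the nonclassical cells the thinned shares were 40% (16.3 to 67.7) and 43.2% (35.99 to 50.7). The part of free RNA in the *Il1b* ratio was not tested. The cell cycle list had only 2 genes measured, of which *Hmgb2* was 2-fold higher, and a median of 0.60. Of 12 classical identity genes 10 were measured, with 1 higher and 2 lower by 2-fold and a median of 0.42. The lower ones were *Fn1* and *Ly6c1* (-1.25), which endothelium had at 1385 and 1595 CPM. *Chil3*, the 1 that was higher (1.82), was at 1081 CPM over all cells of the Cebpa ΔSftpc library and at 481.5 CPM in its nonclassical monocytes.

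Profibrotic and repair mediators were counted because the study concerned fibrosis. Of 16 genes, 6 were measured, *Thbs1* was 2-fold higher and *Fn1* 2-fold lower, and the median was 0.03. *Tgfb1* was at 375.8 CPM (276.1 to 499.7) in the Cebpa fl/fl and 387.2 CPM (357.1 to 419.3) in the Cebpa ΔSftpc nonclassical monocytes, levels whose intervals overlap.

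MHC class II genes depended on which cells were counted. Summed over cells, 6 genes had a median log2 ratio of -0.61, with *H2-Eb1* (-1.13) the 1 gene more than 2-fold lower. A single Cebpa fl/fl cell held 60.1% of the UMIs of *H2-Aa*, *H2-Ab1*, *H2-Eb1* and *Cd74*. Per cell, the median of these 4 genes was 303.5 CPM (quartiles 236.4 and 2214) in the Cebpa fl/fl and 1344 CPM (406.2 and 5703) in the Cebpa ΔSftpc cells, the opposite order. Without cells that carried markers of other types the list's median was 1.54, and in cells with a gate sum of 10 or more it was -1.78. In the Cebpa ΔSftpc library *Cd74* was at 6483 CPM in cells with a gate sum of 2 to 4 and at 1765 CPM in cells with 10 or more. No direction between the genotypes can be given for these genes.

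*S100a8* and *S100a9*, which encode the alarmin calprotectin and are abundant in neutrophils, had 0 and 1 UMIs in the Cebpa fl/fl nonclassical monocytes, against 110.8 and 153.5 CPM in Cebpa ΔSftpc cells. Endothelial cells of the Cebpa ΔSftpc library had them at 217.7 and 257.9 CPM, and 36.2% of the nonclassical against 30.2% of the endothelial cells had an *S100a8* UMI, at median depths of 6352 and 3673. The levels lay below those of endothelium, which should lack the genes, so no expression by the monocytes was read from them, and the source of these UMIs was not tested. *Sftpc*, a gene of AT2 cells, had 94 UMIs in 15 of 15 Cebpa fl/fl cells and 376 UMIs in 85 of 185 Cebpa ΔSftpc cells, or 751.6 and 239.5 CPM, against 21111 and 3835 CPM in endothelial cells.

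Markers of other cell types fixed as lists were summed in the nonclassical monocytes to show what else the cells carried. The 6 interstitial macrophage markers, all found, came to 8819 CPM in the Cebpa fl/fl cells and 4825 CPM in the Cebpa ΔSftpc cells, with *Apoe* the most abundant at 3974 and 3042 CPM. Of the 6 alveolar macrophage markers *Car4*, which capillary endothelium also expresses, was the only one with UMIs in the Cebpa fl/fl cells (447.7 CPM, with 91.1% of its 56 UMIs in 1 cell), and the list came to 91.1 CPM in the Cebpa ΔSftpc cells. The 5 erythroid markers came to 25921 CPM in the Cebpa fl/fl cells, nearly all from 1 cell, and 382.1 CPM in the others, with *Hbb-bs* leading in both.

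Lymphocyte markers were at 0 or 1 UMI for T and natural killer cells in Cebpa fl/fl nonclassical monocytes and higher in the other library. The 6 natural killer markers had 0 UMIs in the Cebpa fl/fl cells and came to 110.2 CPM in the Cebpa ΔSftpc cells, with *Klra8* at 0, against 20.03 CPM in endothelium and 196.9 CPM over all cells of that library. The 6 T cell markers had 1 UMI, of *Cd4*, and 156.0 CPM, led by *Trbc2*, against 20.7 CPM in endothelium and 166.4 CPM over all cells. The 5 B cell markers came to 271.8 and 126.7 CPM, led by *Ighm*, with the excluded genes *Cd79a* and *Ms4a1* at 0 by construction. The 6 dendritic cell markers had 1 UMI in the Cebpa fl/fl cells and 63.1 CPM in the Cebpa ΔSftpc cells, with *Clec9a* at 0 in both.

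Of the 7 neutrophil markers, *Csf3r* and *S100a9* were found in the Cebpa fl/fl cells (95.9 CPM in all) and 7 in the Cebpa ΔSftpc cells (395.5 CPM). The 6 fibroblast markers came to 79.95 and 661.7 CPM, led by *Inmt*, with *Col1a1* and *Pdgfra* at 0 in the Cebpa fl/fl cells. The 4 AT1 markers, led by *Hopx*, came to 191.9 and 136.3 CPM, and the 5 airway secretory markers, led by *Scgb1a1*, to 223.9 and 305.1 CPM. The 5 classical monocyte markers, 3 of them used by the gate, came to 223.9 and 382.8 CPM. More lists were found complete in the Cebpa ΔSftpc library, which held more cells, and the part of other cell types in the genotype ratios was not tested.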

How the data were processed

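Single-cell 3′ libraries of lung were counted with Cell Ranger on mm10 before deposit (6.1.1 in the labels and methods, 5.0.0 in the matrix header), and the authors deposited raw UMI counts per gene and cell barcode for 1 library per genotype. Cells with at least 200 genes, at most 20% mitochondrial UMIs and at least 1000 UMIs were kept and gated. UMIs were summed over the cells of a gate, and levels are given as CPM with exact Poisson intervals, shares with Clopper-Pearson intervals and ratios with exact conditional binomial intervals at 95%, with counts floored at 3 over the group. No test was made, because each genotype was 1 library. Genes with a mean of at least 100 CPM were compared, without the gate genes.

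Named genes were the 10 highest and 10 lowest between genotypes, by the interval bound nearest 0, among genes at or above the level of their whole library, and the 12 highest and 12 lowest against classical monocytes in the Cebpa ΔSftpc library, together with list members, markers and *Cebpa*. The members and all lists were chosen with earlier results of these data known. Doublets were kept. As an alternative, the 8% of cells with the highest Scrublet scores were left out, which removed 0 Cebpa fl/fl and 1 Cebpa ΔSftpc nonclassical cells (the automatic threshold called 229 and 0 cells). Other alternatives changed the gate, the filters, the scaling and the free RNA. Gene positions came from GENCODE on GRCm38 and start site windows from RefSeq on GRCm38.p6. Python 3.11.15, numpy 2.4.6, scipy 1.17.1, pandas 2.3.3, scanpy 1.11.5 and matplotlib 3.10.9 were used. The ratios were also run on simulated Poisson counts. Those counts hold no spread between cells, so the run cannot show how single cells rich in a gene affect the intervals.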

Additional observations from a re-analysis of the deposited data

Results flagged for a closer look

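The list of Fc, complement and scavenger receptors had medians on opposite sides of 0 in the libraries when nonclassical were set against classical monocytes. In the Cebpa fl/fl library its median log2 ratio was 0.79 over 8 measured genes, against 0.22 over all genes. Of the 8 intervals, 6 lay above 0 and 0 below, against 418 and 233 of all 1609 genes. By 2-fold, 3 genes were higher and 0 lower there, against 19.3% and 7.83% of all genes. In the Cebpa ΔSftpc library it was -0.20 over 7 genes, against 0.09 over all genes, but the members went both ways. There 3 intervals lay above 0 and 4 below, against 601 and 431 of all 1582 genes. By 2-fold, 1 gene was higher and 1 lower, against 6.13% and 2.84% of all genes. With 1 library per genotype the difference was not tested. The classical gate of the Cebpa fl/fl library held 17 cells and 58938 CPM of AT2 markers, against 3422 CPM in the Cebpa ΔSftpc library, and the part of this in the difference was not tested.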

How the results depend on the processing

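No paired analysis was possible because each genotype was 1 library, so that leaving out a library was not done either. The 15 Cebpa fl/fl cells held 125071 UMIs in all, against 1570138 in the 185 Cebpa ΔSftpc cells. The median depth was higher in the Cebpa fl/fl cells (7938 UMIs against 6352). Alternatives on a gate sum of 10, *Ptprc*-positive cells, hemoglobin-rich cells, and cells rich in surfactant or fibroblast UMIs were chosen after seeing the data. Except where a cell group or a subtraction removes the UMIs concerned, the causes were not tested.

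The log2 ratio of the share was -0.84 among *Ptprc*-positive cells and 2.78 with a gate sum of 10. Nonclassical cells were 80% and 61.83% of the cells in both monocyte gates in the Cebpa fl/fl and ΔSftpc libraries after thinning to 1000 UMIs. They were 5.59% and 28.71% with no *Csf1r* UMI required, where most cells of the Cebpa fl/fl gates had no *Ptprc* UMI, so these are not shares of monocytes. With a gate sum of 10 they were 39.3% and 28.67%, a fall fixed by the raised threshold, since the classical gate was kept.

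Genes at least 2-fold higher between genotypes (31) numbered 48 with a gate sum of 10, 54 without cells carrying markers of other types, 49 with cells weighted equally, 112 and 11 at CPM limits of 50 and 200, and 274 with no limit. Those lower (55) numbered 99 without such cells, 174 and 21 at these limits, and 696 with none.

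Against classical monocytes in the Cebpa fl/fl library, the 311 higher and 126 lower genes became 474 and 201 without cells carrying other markers, 717 and 322 at 50 CPM, 119 and 60 at 200 CPM, 1599 and 638 with no limit, and 135 and 1706 with free RNA subtracted, which took 90% of the classical UMIs, its upper limit. In the Cebpa ΔSftpc library the 97 and 45 became 177 and 70 with a gate sum of 10, 158 and 71 without other markers, 193 and 87 at 50 CPM, 40 and 28 at 200 CPM and 1224 and 766 with no limit, and 119 were lower with free RNA subtracted. That subtraction took 38.32% of the classical UMIs. The identity list's median was 0.83 with free RNA subtracted for Cebpa fl/fl. For Cebpa ΔSftpc it was 2.92 with a gate sum of 10, 2.72 without other markers and 2.89 with free RNA subtracted.

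Between genotypes the MHC class II median turned to 1.54 and *Hbb-bs* to 0.057 without cells carrying other markers, *Hbb-bs* to 1.25 without hemoglobin-rich cells, and *Inmt* to -1.90 and *Fn1* to 2.13 with a gate sum of 10. Against classical cells, *Sftpc* (0.76), *Sftpb* (0.75), *Sftpa1* (1.17), *Scd1* (0.58) and *Tagln* (1.39) turned without surfactant-rich or fibroblast-rich cells, *Tagln* to 3.31 without other markers, and *Sftpa1* to 0.38 with equal weights and 2.32 with free RNA subtracted. Over all lists and alternatives, 203 of 208 list medians between genotypes stayed between the medians of the members' own interval bounds, while 207 of 245 ratios of named genes between genotypes and 238 of 312 between classes stayed within the interval of the reported ratio. A further 15 ratios had too few counts to give a direction.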
